A study of Mus musculus with 9 samples.

Results

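The complement genes described here are 9: the components C3, C4b, Cfb, C1ra and C1s1, the secreted inhibitor Serping1, and the membrane regulators Cd55, Cd59a and Cd46. They were chosen by name, and all 9 were found among the 24493 genes of the deposited table of TPM, a transcript abundance corrected for transcript length and scaled to a fixed library total. The study compared a mouse pancreatic tumor cell line with lines derived from it that its authors call resistant to immunotherapy. There were 9 libraries in 3 groups of 3: parental cells, escape e1 and escape e2. Cells of every group had the C57BL/6 background, were cultured in DMEM with serum and were given no treatment. The labels name no further allele, agent or derivation step, and do not say whether an escape line is 1 clone or whether replicate libraries stem from separately grown cells. P-values here therefore measure only the spread between these libraries, which may be technical.

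Complement is a cascade of blood proteases and opsonins. In the classical pathway, C1q binds its target and activates the proteases C1r and C1s, which cleave C4 and C2 to form a convertase that cleaves C3; in the alternative pathway, factor B joins deposited C3b in a second convertase. Host cells hold the cascade back with C1 inhibitor, which blocks C1r and C1s, with membrane proteins that dismantle convertases, and with CD59, which stops the membrane attack complex. The liver makes most circulating components, but epithelial cells, fibroblasts and macrophages also make them, often after inflammatory cytokines, and tumor cells commonly carry the membrane regulators.

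The 2 escape lines differed from each other in 6 of the 7 complement genes that could be tested, where 70.3% of all genes tested did. For C1ra, 1 of the 6, the difference did not pass in 7 of 18 alternative ways of processing. In e2, transcripts of C3, C4b, C1s1 and Serping1, which lay under 1 TPM in all parental and e1 libraries, stood between 1.09 and 8.41 TPM. In e1, none of those 4 rose, and Cfb, the complement gene of the 9 with the highest parental level, was 12.2-fold lower than in parental cells. Cd55 was near 0 in both lines, and Cd59a and Cd46 were below 0.4 TPM everywhere. All these levels were modest: the median gene tested stood at 15.9 TPM in parental cells, 15.2 TPM in e1 and 17.0 TPM in e2.

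RefSeq promoter sequences of the mouse assembly GRCm38.p6, the assembly that mm10 corresponds to, matched 6 of the 9 genes. Printed here, on the strand of each gene, are the 250 bases before the start that the promoter table gives for 3 genes: C3 (chr17:57228137-57228386, minus strand) and C1s1 (chr6:124542360-124542609, minus strand), which rose in e2, and Cd55 (chr1:130462745-130462994, minus strand), which fell in both lines. The start used for C3 is the 5′ end of its gene record, that for C1s1 lies 33 bases inside the record (the table also gives a second C1s1 start, not shown), and that for Cd55 lies 2265 bases inside it, so the Cd55 window is within the gene as annotated. Capitals mark a match to the motif of C/EBP factors, regulators of acute-phase genes, searched on both strands as TTGCNNAA.
C3: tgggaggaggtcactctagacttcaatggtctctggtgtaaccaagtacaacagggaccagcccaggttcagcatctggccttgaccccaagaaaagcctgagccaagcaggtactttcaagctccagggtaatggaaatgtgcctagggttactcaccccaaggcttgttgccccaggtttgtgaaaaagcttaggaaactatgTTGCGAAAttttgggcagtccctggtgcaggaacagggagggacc
C1s1: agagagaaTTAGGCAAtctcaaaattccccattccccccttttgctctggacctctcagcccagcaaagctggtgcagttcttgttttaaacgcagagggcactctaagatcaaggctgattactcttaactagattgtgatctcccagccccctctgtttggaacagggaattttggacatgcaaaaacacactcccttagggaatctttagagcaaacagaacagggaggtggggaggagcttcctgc
Cd55: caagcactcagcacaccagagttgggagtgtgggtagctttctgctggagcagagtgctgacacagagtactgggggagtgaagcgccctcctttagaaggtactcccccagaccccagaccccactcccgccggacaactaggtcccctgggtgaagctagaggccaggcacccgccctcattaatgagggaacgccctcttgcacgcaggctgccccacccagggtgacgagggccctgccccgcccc

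The match in C3 lies 45 to 38 bases before the start, and that in C1s1 242 to 235 bases before it. The C/EBP letters occur in 9.56% of all 32851 promoter windows of this length. Matches to the GAS element of STAT factors (TTCNNNGAA, in 7.02% of windows), the interferon-stimulated response element (GAAANNGAAA, 2.98%) and the NF-kB site (3.90%), also searched on both strands, were not found in these 3 windows. The Cd55 window held none of the 4 motifs, and G and C made up 64% of its bases against 52% in C3 and 48% in C1s1. Among windows not printed, those of the second C1s1 start and of C1ra, which was also higher in e2, held none of the 4 motifs either. Nor did that of Cd46. The window of Cd59a, also not printed, held a match to the interferon-stimulated response element (GAAAGGGAAA), 187 to 178 bases before its start. A match says only that the letters are there, and the windows are short.

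A gene was tested if 3 or more libraries reached 1 TPM, which 12769 genes did. Fold changes are log2 differences of TPM + 1 with their SE, a scale that understates the change of genes near 0, and adjusted p-values are from limma over all genes tested. Of the 9 complement genes, 7 passed this filter. C3, C4b, C1s1 and Serping1 passed it only through the e2 libraries and Cd55 only through the parental libraries, so a difference in these 5 was in part set by the filter. The labelled ductal epithelial origin was visible in the parental libraries, where all 8 epithelial markers had a mean of 1 TPM or more and summed to 8260 to 9543 TPM. The sum was 1185 to 1223 TPM in e1 and 1718 to 1782 TPM in e2, with 7 of the 8 markers lower than in parental cells in both lines, among them Epcam (133.5 TPM in parental cells, 0.296 and 0.185 TPM in e1 and e2), and Sox9 higher (6.07, 17.6 and 41.4 TPM). Library 1 of e1 correlated with each of the other e1 libraries at 0.987 over genes, and other pairs within a group correlated at 0.991 to 0.995.

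**Figure D1:**
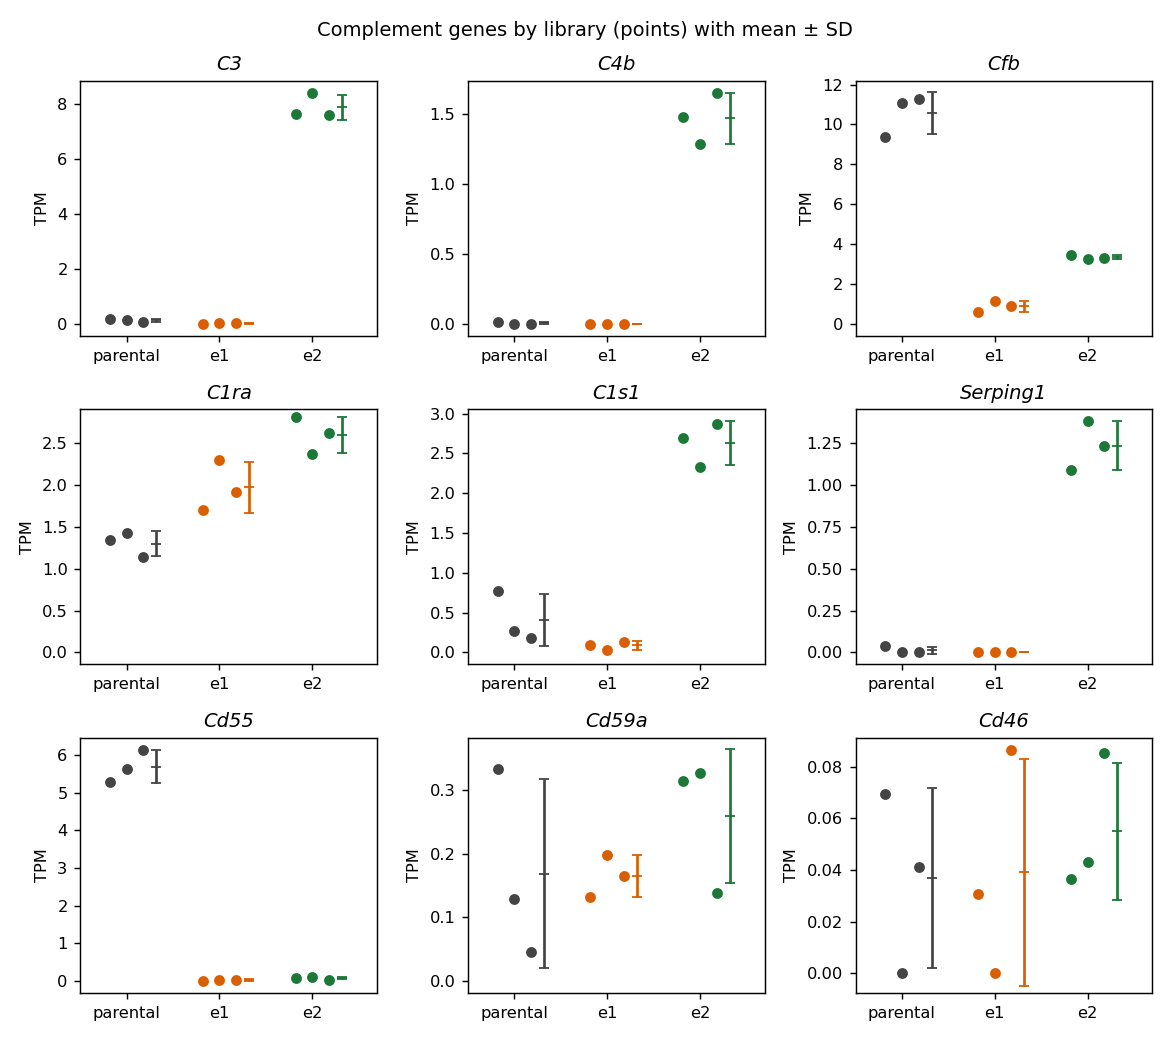
TPM of each complement gene in parental, e1 and e2 libraries, with libraries 1 to 3 from left to right as points and the group mean with its SD beside them; each panel has its own linear axis. C3, C4b, C1s1 and Serping1 are highest in the e2 points, Cfb and Cd55 are highest in parental cells, and the Cd59a and Cd46 axes end below 0.4 and 0.1 TPM.

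C3, the central component on which all activation routes converge, lies on chromosome 17 (57203967 to 57228136). It stood at 0.177, 0.126 and 0.0703 TPM in the parental libraries, at 0.0104, 0.0311 and 0.0148 TPM in e1 and at 7.63, 8.41 and 7.60 TPM in e2. The e2 libraries lay far above the other 6. In e2, C3 was 63.4-fold above parental cells as a ratio of mean TPM (2.98 ± 0.07 on the log2 scale, adjusted p = 8.07e-10) and 3.12 ± 0.07 above e1 (adjusted p = 1.83e-09). The e1 libraries lay below all parental libraries, but the difference did not pass (-0.14 ± 0.07, adjusted p = 0.115). It passed with a pseudocount of 0.1 TPM (-0.89, adjusted p = 0.00349) and with the authors' deposited rlog values (-0.82, adjusted p = 0.00121). In e2, C3 was the highest of the 9 genes, and 67.6% of genes tested stood above it there.

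C4b, which encodes C4, the component cleaved by C1s, lies on chromosome 17 (34728139 to 34743902). It was listed at 0 in all e1 libraries and in parental libraries 2 and 3, stood at 0.0125 TPM in parental library 1, and at 1.48, 1.28 and 1.65 TPM in e2. The e2 libraries lay above all others. It was higher in e2 than in parental cells by 1.30 ± 0.07 (adjusted p = 2.00e-07) and than in e1 by 1.30 ± 0.07 (adjusted p = 3.37e-07), while e1 and parental cells differed by -0.01 ± 0.07 (adjusted p = 0.947). C4b has a close copy, C4a, with which it shares 48.3% of its 31-base stretches in the GENCODE M21 transcripts. Reads can be split between them, so the value of either is uncertain. C4a stood between 0.0299 and 0.185 TPM in the 9 libraries, below C4b in every e2 library and above it in every parental and e1 library.

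Cfb encodes factor B, the protease of the alternative pathway convertase, and lies 112471 bases from C4b on chromosome 17 (34856374 to 34862514), in the class III region of the major histocompatibility complex. It stood at 9.38, 11.1 and 11.3 TPM in parental cells, at 0.585, 1.14 and 0.885 TPM in e1 and at 3.45, 3.27 and 3.32 TPM in e2. The 3 groups did not overlap, with e2 between the other 2. The log2 fold change of Cfb was -2.64 ± 0.12 in e1 (adjusted p = 4.06e-08) and -1.41 ± 0.12 in e2 (adjusted p = 3.04e-06), and was higher in e2 than in e1 by 1.23 ± 0.12 (adjusted p = 1.09e-05). Its neighbour C2, the classical pathway counterpart of factor B, whose gene record lies 87 bases from that of Cfb, stood between 0.0420 and 0.326 TPM in all libraries. Cfb and C3 changed places: Cfb exceeded C3 by 52.9-fold to 160.3-fold in the parental libraries and by 36.8-fold to 59.9-fold in e1, whereas C3 exceeded Cfb by 2.21-fold to 2.57-fold in e2. C3 did not exceed 0.177 TPM in parental cells or 0.0311 TPM in e1, so the size of the ratios there is uncertain.

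C1ra and C1s1 encode the serine proteases of the C1 complex and lie 6903 bases apart on chromosome 6 (124512621 to 124523440 and 124530344 to 124542392). C1ra, the protease that activates C1s, stood at 1.34, 1.43 and 1.14 TPM in parental cells, 1.70, 2.30 and 1.92 TPM in e1 and 2.81, 2.38 and 2.62 TPM in e2. The groups did not overlap, and the steps were small: 0.37 ± 0.10 in e1 (adjusted p = 0.00762) and 0.65 ± 0.10 in e2 (adjusted p = 0.000225) against parental cells. The difference of e2 from e1, 0.28 ± 0.10, passed (adjusted p = 0.0281) but ended without e1 library 1 (0.21, adjusted p = 0.0714), e1 library 3 (0.27, 0.0696), e2 library 1 (0.24, 0.0980) or e2 library 3 (0.28, 0.0720). It ended also with median-ratio scaling (0.21, adjusted p = 0.0602) and with the rlog values (0.21, adjusted p = 0.0885). Of 18 alternatives 7 did not pass, and adjusted p lay between 0.0122 and 0.0980 over all of them.

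C1s1, the protease that cleaves C4 and C2, stood at 0.774, 0.266 and 0.179 TPM in parental cells, 0.0948, 0.0283 and 0.134 TPM in e1 and 2.69, 2.32 and 2.87 TPM in e2. Parental library 1 lay above the other parental libraries, and no group overlapped another. C1s1 rose by 1.39 ± 0.14 in e2 (adjusted p = 1.57e-05), a 6.47-fold ratio of mean TPM that became 11.8-fold without parental library 1, and was 1.74 ± 0.14 above e1 (adjusted p = 4.32e-06). Its lower level in e1 than in parental cells did not pass (-0.35 ± 0.14, adjusted p = 0.0524), and without parental library 1 it was -0.17 (adjusted p = 0.112). That difference passed with a pseudocount of 0.1 TPM (-1.31, adjusted p = 0.0152), with the rlog values (-0.72, adjusted p = 0.0179) and without parental library 3 (-0.47, adjusted p = 0.0207), and over the alternatives its p ran from 0.0152 to 0.132. Both proteases have close copies: C1ra shares 56.9% of its 31-base stretches with C1rb, and C1s1 shares 33.5% with C1s2, so their single values are uncertain. C1rb was listed at 0 in all 9 libraries, and C1s2 did not exceed 0.176 TPM.

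Serping1, the gene of C1 inhibitor, which inactivates C1r and C1s, lies on chromosome 2 (84765360 to 84775444). It was listed at 0 in all e1 libraries and in parental libraries 2 and 3, stood at 0.0359 TPM in parental library 1 and at 1.09, 1.38 and 1.24 TPM in e2. The e2 libraries were separate from the rest, as for C4b. The difference of e2 from parental cells was 1.14 ± 0.07 (adjusted p = 4.05e-07) and from e1 1.16 ± 0.07 (adjusted p = 6.16e-07), and e1 differed from parental cells by -0.02 ± 0.07 (adjusted p = 0.845).

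Cd55 encodes decay-accelerating factor, which takes C3 convertases apart, and lies on chromosome 1 (130429798 to 130465009). It stood at 5.28, 5.64 and 6.15 TPM in parental cells, was listed at 0 in e1 library 1, stood at 0.0328 and 0.0311 TPM in the other e1 libraries, and at 0.0784, 0.0931 and 0.0307 TPM in e2. Both escape lines lay far below every parental library and overlapped each other. The log2 fold change of Cd55 was -2.71 ± 0.07 in e1 (adjusted p = 1.61e-09) and -2.65 ± 0.07 in e2 (adjusted p = 1.86e-09), and e2 minus e1 was 0.06 with a 95% confidence interval from -0.11 to 0.23 (adjusted p = 0.471). As a ratio of mean TPM, parental cells were 84.5-fold above e2. Its close copy Cd55b, with which it shares 11.2% of its 31-base stretches, was listed at 0 in all libraries.

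Cd59a, the regulator that keeps the membrane attack complex from forming, lies on chromosome 2 (104095753 to 104115410). It stood at 0.334, 0.128 and 0.0447 TPM in parental cells, 0.132, 0.198 and 0.165 TPM in e1 and 0.315, 0.327 and 0.139 TPM in e2. All 3 groups overlapped. Cd46, a cofactor for the cleavage of C3b and C4b that in mice is known chiefly from testis, lies on chromosome 1 (195038971 to 195098784) and did not exceed 0.0865 TPM in any library. Neither passed the filter. Tested with no filter among 19340 genes, the 3 differences between groups ran from 0.00 to 0.11 for Cd59a and from 0.00 to 0.03 for Cd46, with adjusted p-values from 0.335 to 1 and from 0.603 to 0.997. The 95% confidence interval for e2 minus parental cells ran from -0.10 to 0.32 for Cd59a and from -0.06 to 0.11 for Cd46. Cd59b, the copy of Cd59a, stood between 0.170 and 1.32 TPM and shares 8.23% of the 31-base stretches of Cd59a.

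**Figure D2:**
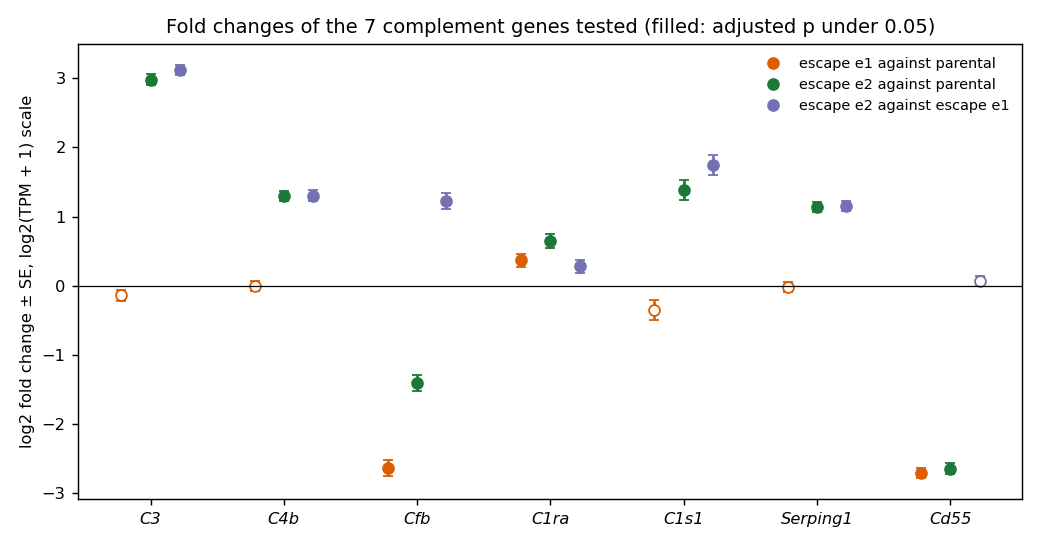
Log2 fold changes of TPM + 1 with their SE for the 7 complement genes tested, in 3 comparisons; filled points have an adjusted p under 0.05 and open points do not. C3 has the highest values in both comparisons of e2, and Cfb and Cd55 lie below 0 in both escape lines.

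By comparison, 3 of the 7 genes tested passed in e1 against parental cells, C1ra higher and Cfb and Cd55 lower, where 70.6% of all genes tested passed, 35.7% higher and 34.9% lower. In e2 against parental cells all 7 passed, 5 higher and 2 lower, where 73.5% of all genes did, 40.8% higher and 32.7% lower. Between e2 and e1, 6 of 7 passed, all higher in e2, where 70.3% of all genes passed and 40.6% passed as higher. For these 6 all e2 libraries lay above all e1 libraries, as for 44.3% of all genes tested. C3, C4b, C1s1 and Serping1 entered this test only through the e2 libraries, so that direction was in part set by the filter. Most genes tested differed between these groups, so the number of calls is not particular to complement. The e1 and e2 comparisons share the parental libraries and are not independent of each other. With a pseudocount of 0.1 TPM in place of 1, values of genes near 0 moved by more than 1.5 times: C3 in e2 against parental cells became 5.18, C4b 3.91, C1s1 2.60, Serping1 3.59 and Cd55 -5.13. In e2 against e1 they became 6.07 for C3, 3.97 for C4b, 3.92 for C1s1, 3.73 for Serping1 and 1.87 for Cfb, and in e1 against parental cells -5.59 for Cd55 and 0.56 for C1ra. The rlog values gave 4.52 for C3 and 3.25 for C4b in e2 against parental cells and 5.33 and 3.28 against e1. All these had the direction of the values above and passed.

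Within a group, the order of the 9 genes by TPM differed. In parental cells Cfb (10.6 ± 1.04 TPM, SD, n = 3) was followed by Cd55 (5.69 ± 0.435), C1ra (1.30 ± 0.150) and C1s1 (0.407 ± 0.321), and these 4 did not overlap, whereas C1s1 overlapped Cd59a below it. In e1 only C1ra (1.98 ± 0.303) had a mean above 1 TPM, ahead of Cfb (0.871 ± 0.279), and the libraries of both were separate from each other and from those of Cd59a below. In e2 the order was C3 (7.88 ± 0.457), Cfb (3.35 ± 0.0917), C1s1 (2.63 ± 0.278), C1ra (2.60 ± 0.219), C4b (1.47 ± 0.183), Serping1 (1.24 ± 0.147) and Cd59a (0.260 ± 0.105). There C1s1 overlapped C1ra, and C4b overlapped Serping1. The TPM of the 5 components C3, C4b, Cfb, C1ra and C1s1 summed to 11.7, 12.9 and 12.7 in the parental libraries, 2.39, 3.50 and 2.95 in e1 and 18.1, 17.7 and 18.1 in e2. Cfb was the largest part of that sum in parental cells, C1ra in e1 and C3 in e2.

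Correlations of log2(TPM + 1) over the 9 libraries describe the same grouping. C3 correlated with C4b at r = 0.994, with Serping1 at 0.998 and with C1s1 at 0.968, Cfb correlated with Cd55 at 0.891, and C3 with Cfb at -0.001. With 3 groups of 3, such values reflect mainly 3 group means. Of 8777 other genes whose highest group mean reached 10 TPM, 483 correlated with C3 above 0.95. The most similar to C3 were Serpina3n, a secreted serpin of the acute phase (r = 0.999; listed at a mean of 0 in parental cells and e1 and at 11.3 TPM in e2), and Mmp3, the matrix protease stromelysin (r = 0.999; 0.152, 0.0107 and 27.2 TPM in parental cells, e1 and e2). Serpina3n was also the most similar to Serping1 (r = 0.997). For C4b it was H2-Q8, a class I gene of the major histocompatibility complex (r = 0.998; 15.4 TPM in e2), whose reads can be shared with close copies. Cd55 was most like Tmprss2, an epithelial transmembrane protease (r = 0.9996; 52.6, 0.0418 and 0.159 TPM), and Gcnt3, a glycosyltransferase of mucin glycans (r = 0.9995; 85.1, 0.0496 and 0.0652 TPM). The gene closest to Cfb was Coa3, an assembly factor of cytochrome oxidase (r = 0.997; 193.4, 97.2 and 137.9 TPM in parental cells, e1 and e2). That to C1ra was Dscc1, of sister chromatid cohesion (r = 0.991; 11.2, 16.2 and 21.2 TPM). That to C1s1 was Por, the cytochrome P450 reductase (r = 0.991; 138.9, 102.2 and 297.6 TPM). Correlation compares the pattern and not the size of a change, and Coa3 and Por changed by smaller factors than Cfb and C1s1.

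The other complement genes were taken from lists by role holding 59 genes, of which 58 were in the table and 17 passed the filter. Of the 41 that did not, 10 were listed at 0 in all libraries, among them C7, Cfd and Mbl1. Of the 17 tested, 5 passed the filter through 1 group only, among them Fcna and Colec12 through e2 and C4bp and Susd4 through parental cells, so their differences were in part set by the filter. Against parental cells, 3 of the 17 were higher and 5 lower in e1 (median log2 fold change -0.06, against 0.02 over all genes tested), and 8 were higher and 7 lower in e2 (median 0.04, against 0.07). Between the escape lines, 7 were higher and 3 lower in e2 (median 0.17, against 0.09). So 8, 15 and 10 of the 17 passed, where 70.6%, 73.5% and 70.3% of all genes tested did, and 29.7% of all genes were lower in e2 than in e1.

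Among recognition and initiation genes, 1 of 5 tested was higher and 1 lower in e1, and 4 were higher and 1 lower in e2; over all genes tested 35.7% and 34.9% were higher and lower in e1, and 40.8% and 32.7% in e2. The lower one was Masp1 in both lines, a protease of the lectin pathway, at 15.1 ± 1.43 TPM in parental cells, 5.89 ± 0.419 TPM in e1 and 2.98 ± 0.213 TPM in e2 (SD, n = 3). Its log2 fold change was -1.22 ± 0.09 in e1, -2.01 ± 0.09 in e2 and -0.79 ± 0.09 in e2 against e1 (adjusted p-values 1.11e-06, 2.92e-08 and 2.84e-05). Fcna, a ficolin of the lectin pathway, stood at 2.50 to 2.77 TPM in e2 against 0.258 TPM or less elsewhere (1.77 ± 0.08 against parental cells), and Colec12, a scavenger receptor of the collectin family, at 1.88 to 2.33 TPM against 0.366 TPM or less (1.27 ± 0.09).

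The chains of C1q, the recognition subunit that C1r and C1s attach to, were listed at 0 in all parental and e1 libraries and summed to 0.627, 0.419 and 0.492 TPM in e2. Properdin, which stabilises the alternative pathway convertase, is encoded by Cfp, which rose in both lines. Cfp stood at 1.14 ± 0.234 TPM in parental cells, 2.87 ± 0.334 TPM in e1 (0.86 ± 0.12, adjusted p = 0.000109) and 2.24 ± 0.361 TPM in e2 (0.60 ± 0.12, adjusted p = 0.00111). Of the 6 terminal component genes only C8g passed the filter, a lipocalin subunit of the membrane attack complex, at 2.22 ± 0.345 TPM in parental cells and 3.51 ± 0.187 TPM in e2 (0.49 ± 0.14, adjusted p = 0.0117). Hc, which encodes C5, did not exceed 0.145 TPM.

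Soluble regulators included the most abundant gene of the lists to change. Clu, clusterin, a chaperone that also binds the terminal complex, stood at 2831 ± 101.8 TPM in parental cells, 69.8 ± 5.25 TPM in e1 and 322 ± 1.96 TPM in e2. It was 40.6-fold and 8.79-fold lower in e1 and e2 than in parental cells (log2 fold changes -5.32 ± 0.06 and -3.13 ± 0.06, adjusted p = 8.85e-12 and 1.37e-10), and e2 was 2.19 ± 0.06 above e1 (adjusted p = 2.93e-09). C4bp, the C4b-binding protein gene, stood at 1.53 to 2.07 TPM in parental cells, was listed at 0 in all e1 libraries and did not exceed 0.0425 TPM in e2.

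**Figure D3:**
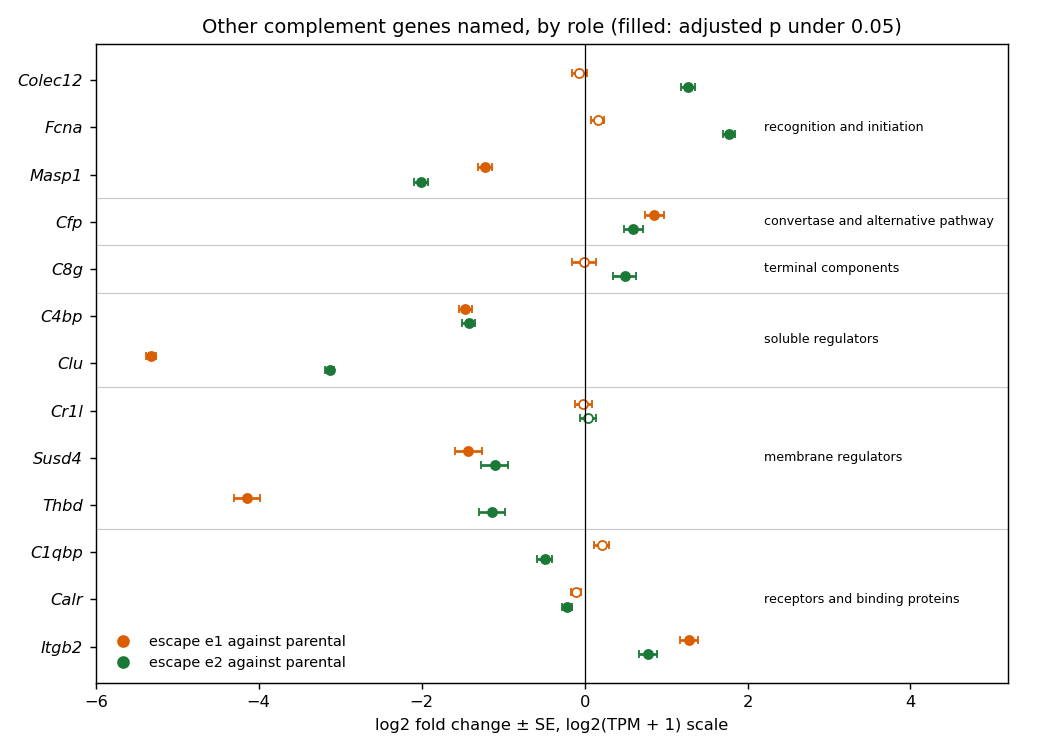
Log2 fold changes of TPM + 1 with their SE for 13 of the other complement genes tested, those named in the text, grouped by role, in e1 and e2 against parental cells; filled points have an adjusted p under 0.05. Clu lies furthest to the left in both lines, at -5.32 and -3.13, and Fcna and Colec12 lie to the right in e2 and near 0 in e1.

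Cr1l, the gene of Crry, the widespread membrane regulator of C3 and C4 activation in mice, was far above Cd55, Cd59a, Cd59b and Cd46 in every library. It stood at 21.9, 28.3 and 27.0 TPM in parental cells, 27.9, 23.6 and 24.6 TPM in e1 and 26.1, 27.6 and 25.4 TPM in e2, and the groups overlapped. Differences from parental cells were -0.01 in e1 (95% confidence interval -0.24 to 0.21, adjusted p = 0.910) and 0.04 in e2 (-0.18 to 0.27, adjusted p = 0.725). Without library 1 of both parental cells and e1, e1 passed at -0.19 (adjusted p = 0.00579) and e2 minus e1 at 0.12 (adjusted p = 0.0332). Cr1l made up 77.5 to 82.6% of the summed TPM of Cr1l, Cd55, Cd59a, Cd59b and Cd46 in the parental libraries, 96.1 to 98.8% in e1 and 93.9 to 98.1% in e2. The RefSeq records of Cr1l and Cd46 overlap by 74 bases, and their transcripts share no 31-base stretch. Thbd, thrombomodulin, an endothelial anticoagulant that also dampens complement, stood at 27.6 ± 7.99 TPM in parental cells, above Cr1l in library 1 only, 0.584 ± 0.0169 TPM in e1 and 11.7 ± 0.917 TPM in e2, and Susd4, a sushi domain inhibitor, had log2 fold changes of -1.43 ± 0.17 in e1 and -1.10 ± 0.17 in e2.

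**Figure D4:**
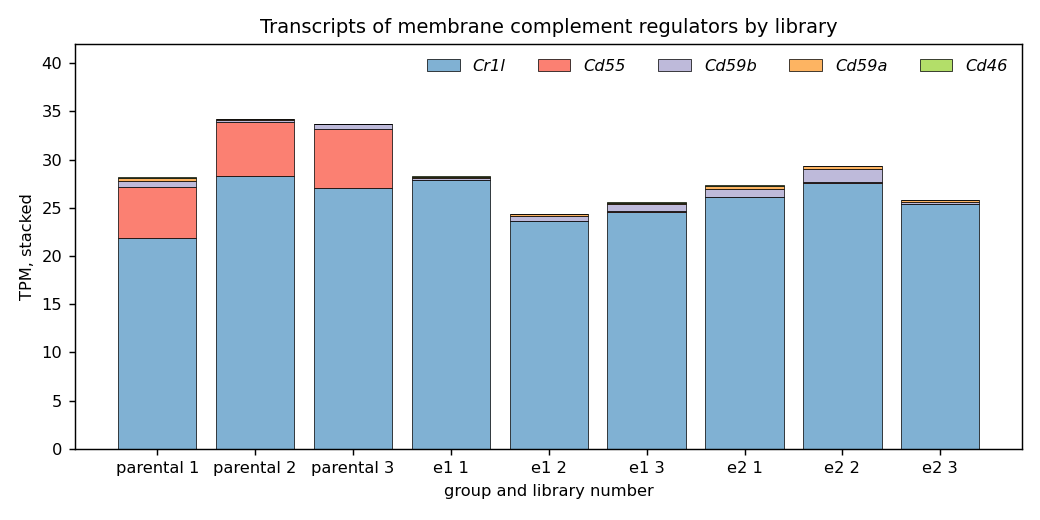
Stacked TPM of 5 membrane regulator genes in each of the 9 libraries. Cr1l forms the tallest segment in every bar, at 21.9 to 28.3 TPM, and the Cd55 segment of 5.28 to 6.15 TPM is visible only in the parental bars.

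Receptor genes were mostly near 0: of 11 receptor and binding protein genes, 3 passed the filter. Itgb2, the beta chain shared by complement receptors CR3 and CR4, rose from 0.606 ± 0.237 TPM to 2.89 ± 0.235 TPM in e1 and 1.73 ± 0.0633 TPM in e2, while the alpha chain genes Itgam and Itgax did not exceed 0.105 TPM. The anaphylatoxin receptor gene C3ar1 stood at 0.997, 1.15 and 1.03 TPM in parental cells and at 0.393 TPM or less in the escape lines, and did not pass the filter. C1qbp, a multifunctional C1q-binding protein of mitochondria, fell in e2 from 446 ± 32.7 to 317 ± 3.26 TPM (-0.49 ± 0.09), and the chaperone gene Calr, which also binds C1q, from 871 ± 75.7 to 747 ± 4.88 TPM (-0.22 ± 0.06, adjusted p = 0.0082).

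Macrophages and fibroblasts are known sources of C1q, C3, C4 and C1 inhibitor, so markers of other cell types were read beside the genes that rose in e2. Of 8 macrophage markers, Lyz2 was listed at 0 in parental cells and e1 and stood at 0.914 to 1.51 TPM in e2, like the C1q chains, and Cd68 stood at 1.72, 3.41 and 5.42 TPM (means of parental cells, e1 and e2). Mrc1 was lower in both lines (23.4, 0.148 and 2.68 TPM), as was Csf1r (0.825, 0.102 and 0.113 TPM), Fcgr1 did not exceed 0.274 TPM in any library, and the defining genes Adgre1 and Ptprc did not exceed 0.0239 and 0.0245 TPM in e2. The 8 together summed to 79.4 to 83.0 TPM in parental libraries, 9.02 to 15.7 TPM in those of e1 and 62.6 to 68.0 TPM in those of e2, most of it Cd14. Of 8 fibroblast markers, 0 had a mean of 1 TPM or more in parental cells, 5 in e1 and 6 in e2, with sums of 0.637 to 0.995, 237 to 261 and 192.5 to 201.1 TPM. Dcn, at 34.6 to 36.3 TPM in e2 against 0.0897 to 0.227 TPM in e1, moved with C3, whereas Col1a1 was higher in e1 (103 TPM) than in e2 (34.8 TPM). The part of fibroblast-like cells in the e2 levels was not tested, and in bulk RNA more cells of a type and more RNA per cell cannot be told apart. Hepatocyte and endothelial marker lists summed to at most 1.12 and 0.905 TPM in any library, and the lymphocyte list to at most 0.448 TPM.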

How the data were processed

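Per the labels' protocols, RNA was extracted with a Qiagen kit and a commercial provider made the libraries. The submitters' processing notes name Salmon, DESeq2 and mm10, with tool versions, annotation and strand setting not given in the sources used here. The authors deposited gene TPM values and rlog values on a log2 scale. TPM keeps no read depth, so the depth is unknown and no counting interval or detection limit is given.

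Library columns were matched to groups by sample title. Values were taken as log2(TPM + 1) for the 12769 of 24493 genes that reached 1 TPM in 3 or more libraries. The limma package (version 3.58.1, R 4.3.3) fitted 3 group means with trended, robust empirical Bayes; p-values were two-sided, Benjamini-Hochberg adjusted over all genes tested and called under 0.05. The steps were tested on simulated data.

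The members, gene lists and tests were chosen with earlier results of these data known. All 9 members are named whatever their result, with up to 3 called genes per list, the near-copies of members and, of the 2 genes most like each member, 1 or 2. C1q chains, Hc, C2, C3ar1, Itgam, Itgax, marker genes and genes listed at 0 were named after their values were seen. Coordinates and promoters are from RefSeq, GRCm38.p6, and shared stretches from GENCODE M21 transcripts. Promoter windows that overlap an annotated exon are not printed, and that of Cd59a, which overlaps none, is not printed either. The alternatives changed the pseudocount (0.1 TPM), the filter (none, or 5 TPM), the scaling (median ratios, or without the 10 highest genes), the table (rlog), the libraries fitted (2 groups, or each library left out) and the model (replicate block, plain empirical Bayes). Leaving out library 1 of both parental cells and e1 was added after seeing the data. 1 gene of the lists is not reported here.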

Additional observations from a re-analysis of the deposited data

Results flagged for a closer look

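The effects of the 2 escape lines against the shared parental libraries differed in 6 of the 7 complement genes tested, by the contrast of e2 minus e1 in limma. The difference was 3.12 for C3, 1.74 for C1s1, 1.30 for C4b, 1.23 for Cfb, 1.16 for Serping1 and 0.28 for C1ra, where 70.3% of all genes tested passed in that contrast. That of C1ra did not pass in 7 of 18 alternatives. All 3 e2 libraries lay above all 3 e1 libraries for each of the 6, as for 44.3% of all genes tested. Of the 6, C3, C4b, C1s1 and Serping1 passed the filter only through the e2 libraries, so their differences were in part set by the filter. C3, C4b, C1s1 and Serping1 were higher in e2 than in parental cells and were not called in e1, and Cfb was lower in both lines and lower in e1 than in e2.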

How the results depend on the processing

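Over the alternatives run, no called fold change of a complement gene changed direction. In e1 against parental cells 3 members passed, and 5 did with a pseudocount of 0.1 TPM and with the rlog values, where 4 were lower. Over all genes, 9014 of 12769 passed in the main fit, 9011 of 12769 with that pseudocount and 9070 of 12752 with the rlog values. With a filter of 5 TPM only C3, Cfb and Cd55 were tested: 0 members were then higher in e1, 3 passed in e2 against parental cells with 1 higher, and 2 passed in e2 against e1, both higher. With that filter, 7548, 7795 and 7630 of 10461 genes passed in e1 against parental cells, e2 against parental cells and e2 against e1. Leaving out single libraries gave 3 to 4 members called in e1 against parental cells, 7 throughout in e2 against parental cells and 5 to 6 in e2 against e1. Over all genes tested, 8348 to 9695, 8683 to 10246 and 8198 to 9331 of 12769 then passed in these comparisons. Deviations of same-numbered libraries correlated at -0.13 to 0.0499, and those of differently numbered libraries at -0.161 to 0.127. With 3 libraries a group, this cannot tell whether same-numbered libraries were prepared together. With a replicate block 3, 7 and 6 members passed, where 8742, 9163 and 8740 of 12769 genes did. Removing the 10 highest genes moved the median over all genes to 0.11 in e2 against parental cells and to 0.14 in e2 against e1. Depth is unknown in TPM, so no limit can be set for genes listed at 0.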
